A study of Mus musculus with 6 samples.

Results

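The 76 genes described here encode proteins of the cytosolic ribosome. They were chosen by symbol alone: every Rpl or Rps symbol followed by a number, with or without a final a or x, plus Rplp0, Rplp1, Rplp2 and Rpsa. Symbols of pseudogenes were left out. This gave 76 of the 46983 genes in the count table, of which 43 encode proteins of the large (60S) subunit, 30 encode proteins of the small (40S) subunit and 3 encode the acidic stalk proteins.

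Alox5-/- and wild-type (WT) leukemia cells of the mouse were compared, with 3 libraries each. Both groups carry MLL-AF9, a gene fusion found in human acute myeloid leukemia, which a retrovirus had brought into marrow stem and progenitor cells (LSK: no lineage markers, Sca-1 and c-Kit present) of Alox5-/- or C57BL/6J WT donors. GFP-positive cells then went into irradiated C57BL/6J recipients in both groups. No library was treated with a drug, and the series asks how 5-lipoxygenase, the enzyme encoded by Alox5, bears on leukemic stem cells. The labels call the libraries biological replicates and name no animals, so the p-values rest on the spread between these samples, which may be technical.

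Each ribosome holds one copy of nearly all of its proteins, and a dividing blood progenitor spends much of its transcription and translation on making them. Their mRNAs begin with a run of pyrimidines at the 5' end, the TOP motif, through which mTORC1 and the RNA-binding protein LARP1 set how well they are translated. Free ribosomal proteins are degraded, and a few of them, with RPL5 and RPL11 as the best known, bind MDM2 and so stabilise p53 when ribosome assembly fails. Loss of 1 copy of RPS19 or RPS14 in humans causes anemia, in Diamond-Blackfan disease and in the 5q- syndrome. Ribosomal protein genes also have a great many processed pseudogenes, made when their abundant mRNAs were copied back into the genome.

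Libraries held 28985597 to 38695948 gene counts. Alox5 itself stood at 65.6, 62.1 and 64.9 CPM in Alox5-/- libraries, against 102, 106 and 106 CPM in WT libraries (edgeR log2 fold change -0.70, SE 0.04, adjusted p = 7.65e-10), which follows the labels, although counts over the whole gene check the disrupted allele only in part. CPM is the count of a gene scaled to a common library size (counts per 1e6, with TMM factors). Ptprc, Kit, Cd34, Hoxa9 and Meis1, markers of leukemic progenitors, were above 100 CPM in all 6 libraries, Ly6a (Sca-1) was at 0.76 ± 0.16 CPM in Alox5-/- libraries and 1.06 ± 0.17 CPM in WT libraries (mean ± SD, n = 3 each), and defining erythroid, B cell and T cell markers were at or near 0. Myeloid and other markers differed between the groups: Mpo, the granule enzyme myeloperoxidase, had 65.6 ± 7.76 CPM in Alox5-/- libraries and 197 ± 13.4 CPM in WT libraries (edgeR log2 fold change -1.59, adjusted p = 8.46e-11). Kit (-0.23), Itgam (-0.21), Adgre1 (-0.39) and Itga2b (-1.11) were also called lower, and Vcam1 (2.04), Cd34 (0.36), Hoxa9 (0.33) and Ptprc (0.09) higher. The part of these differences in the ribosomal values was not tested. Alox5-/- replicate 2 stood apart from its group: chi-square per degree of freedom was 8.53 and 9.65 against Alox5-/- replicates 1 and 3, which differed from each other by 2.11, while pairs of WT libraries gave 2.20 to 4.79.

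Counts on the 76 genes made up a like share of gene counts in all libraries. Multiply aligned reads and counts on pseudogene copies fall outside this share, so it need not equal that of ribosomal protein mRNA. The 76 genes took 2.20, 2.23 and 2.19% of gene counts in the Alox5-/- libraries and 2.22, 2.16 and 2.25% in the WT libraries, or 2.21 ± 0.02% in Alox5-/- against 2.21 ± 0.05% in WT (SD, n = 3 each). The groups overlapped, and the WT libraries alone spanned the whole range. In whole-population RNA of this kind, fewer cells of a type and less RNA per cell cannot be told apart.

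All 76 genes passed the filter on low counts. By edgeR's quasi-likelihood test, with Benjamini-Hochberg adjustment over 13705 tested genes and a threshold of 0.05, 20 of the 76 (26.3%) were called: 19 were lower in Alox5-/- cells and 1, Rps15a, was higher. Among all tested genes 53.8% were called, 27% lower and 26.8% higher. Among the other genes within the CPM range of the 76, which was 6.57 to 2375.5 CPM, 60.5% were called. The share of ribosomal protein genes called was below both of these, and the share called lower, 19 of 76, was near its background. The 15 genes called by DESeq2 and the 20 called by limma-voom were all among the same 20.

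The changes were small. Log2 fold changes lay between -0.23 (Rpl10) and 0.21 (Rplp2, not called), while 6021 of the 13705 tested genes (43.9%) lay outside these bounds. The median was -0.06, against 9.97e-05 over all tested genes, and 59 of the 76 fold changes were below 0. For 64 of the 76 (84.2%), the 95% interval lay within 1.2-fold of no change, a bound met by 35.9% of all tested genes. None of the 20 called genes differed by 1.2-fold or more, while 4210 of the 13705 tested genes were called and did. Alox5-/- and WT libraries were fully apart for 24 of the 76 (31.6%; 22 lower and 2 higher in Alox5-/-), compared with 60% of tested genes.

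**Figure D1:**
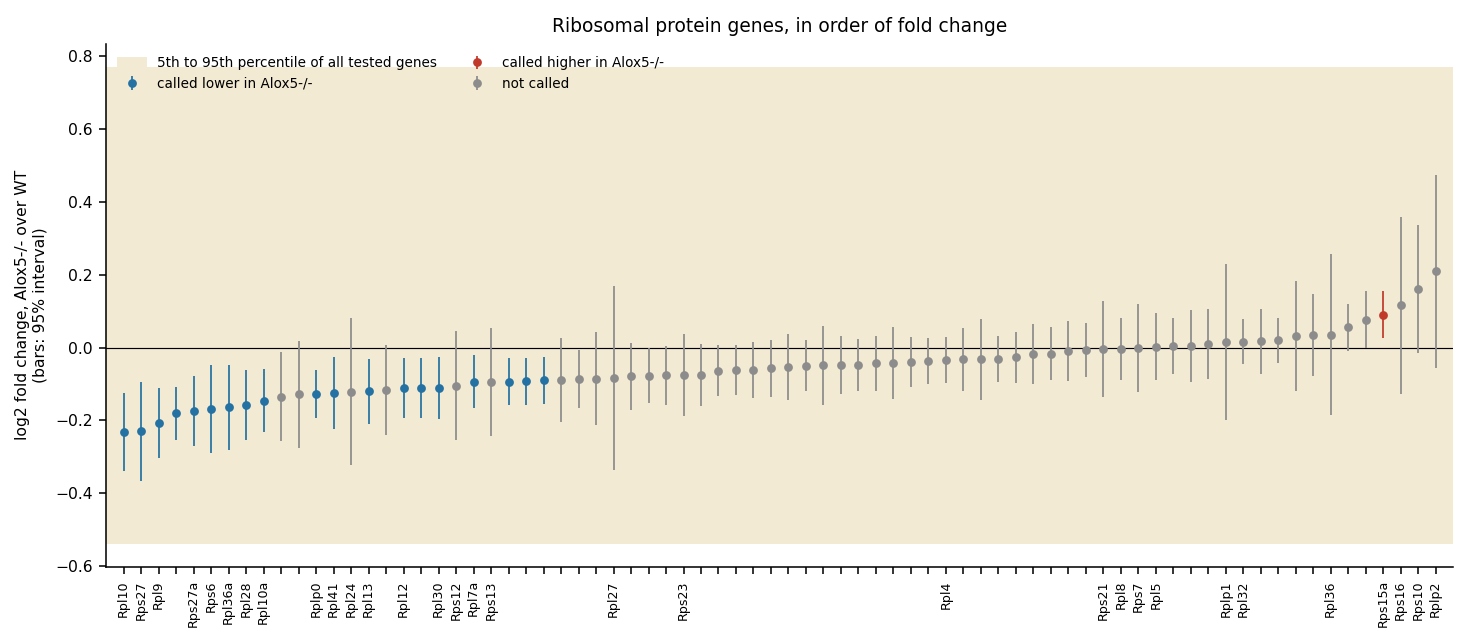
Log2 fold change, Alox5-/- over WT, of the 76 ribosomal protein genes in order of size, with 95% intervals and the names of some of the genes described in the text; blue marks the 19 genes called lower in Alox5-/-, red the 1 called higher and grey the 56 not called, and the band spans the 5th to 95th percentile of all tested genes (-0.54 to 0.77). Every point lies inside the band, and 59 of the 76 lie below 0.

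The number of calls and their split depended on how libraries were scaled, while lower calls outnumbered higher ones under each scaling. With TMM scaling the split was 1 higher and 19 lower. Upper-quartile scaling gave 3 higher and 10 lower, and library size alone gave 4 higher and 8 lower, with medians of -0.03 and -0.01. Of all tested genes, 53.1% and 53.2% were called in these fits. The median of all tested genes moved as well under these scalings, to 0.03 and 0.04, and the distance between the ribosomal median and that of all tested genes was 0.06 on the log2 scale under each. Leaving out single libraries gave 11 to 27 calls: 11 without Alox5-/- replicate 3, 12 without WT replicate 1, 13 without WT replicate 3 and 27 without WT replicate 2. These were 14.5 to 35.5% of the 76, where 47.3 to 52.1% of all tested genes were called in the same fits. Of the 20 called genes, 6 were called under all 18 fits that were run, all of them lower in Alox5-/- cells, and Rpl10, Rps27, Rpl9, Rps27a and Rplp0 were among them.

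Of the 43 large-subunit genes, 10 (23.3%) were called lower and none higher by edgeR, where 27% of all tested genes were called lower and 26.8% higher. An unadjusted p under 0.05 was met by 12 of the 43 and by 8042 of the 13705 tested genes. The median log2 fold change of the 43 was -0.05. Rpl10, a protein at the peptidyl transferase centre that recurs as a mutation target in human T cell leukemia, had 64.4, 56.6 and 62.6 CPM in Alox5-/- libraries, against 68.5, 75.1 and 72.1 CPM in WT libraries. All Alox5-/- values lay below all WT values, a 1.17-fold difference (edgeR log2 fold change -0.23, SE 0.05, adjusted p = 0.00106). Rpl9, which lies at the base of the stalk that carries the acidic proteins, had 41.5, 42.2 and 41.7 CPM in Alox5-/- libraries, against 45.7, 50.03 and 48.8 CPM in WT libraries. The groups again did not overlap (edgeR log2 fold change -0.21, SE 0.04, adjusted p = 0.00122).

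Rpl28, an outer protein of the large subunit found in eukaryotes and not in bacteria, had 37.8, 36.6 and 37.9 CPM in Alox5-/- libraries, against 42.4, 40.3 and 42.7 CPM in WT libraries (edgeR log2 fold change -0.16, SE 0.04, adjusted p = 0.00758). Rpl36a, whose gene lies on the X chromosome, had 22.3, 22.8 and 23.0 CPM in Alox5-/- libraries, against 25.01, 26.7 and 24.6 CPM in WT libraries (edgeR log2 fold change -0.16, SE 0.05, adjusted p = 0.0192). Neither gene's groups overlapped. The Rpl36a call was lost in DESeq2 (adjusted p = 0.0560), with library size alone, and without Alox5-/- replicate 1 (log2 fold change -0.15, adjusted p = 0.0646) or WT replicate 2 (-0.13, 0.0636). The other large-subunit genes called lower were Rpl10a, Rpl41, Rpl13, Rpl12, Rpl30 and Rpl7a, with log2 fold changes of -0.15 to -0.09.

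Of the 30 small-subunit genes, 8 were called lower and 1 higher (30%, compared with 53.8% of all tested genes). Their median log2 fold change was -0.06. Rps27a, which is made as a fusion of ubiquitin with a ribosomal protein, had 33.3, 33.8 and 34.9 CPM in Alox5-/- libraries, against 39.2, 37.8 and 38.1 CPM in WT libraries (edgeR log2 fold change -0.17, SE 0.05, adjusted p = 0.00444). Rps27, a zinc finger protein of the small subunit, had 15.9, 16.2 and 17.5 CPM in Alox5-/- libraries, against 20.2, 18.4 and 19.6 CPM in WT libraries (edgeR log2 fold change -0.23, SE 0.06, adjusted p = 0.00627). Neither pair of groups overlapped. Rps6, the phosphorylation target of the S6 kinases downstream of mTORC1, had 19.6, 21.2 and 20.3 CPM in Alox5-/- libraries, against 23.8, 22.5 and 22.5 CPM in WT libraries (edgeR log2 fold change -0.17, SE 0.06, adjusted p = 0.0212). The Rps6 call was lost in DESeq2 (adjusted p = 0.0607), with library size alone, and without Alox5-/- replicate 1 (log2 fold change -0.14, adjusted p = 0.0880), Alox5-/- replicate 3 (-0.16, 0.0629) or WT replicate 1 (-0.14, 0.0893).

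Rps15a was the only one of the 76 genes called higher at the TMM scaling. It is a core small-subunit protein, with 290.6, 289 and 298 CPM in Alox5-/- libraries, against 275, 279 and 272 CPM in WT libraries. The groups did not overlap, and the difference was 1.06-fold (edgeR log2 fold change 0.09, SE 0.03, adjusted p = 0.0205). The call was lost without Alox5-/- replicate 3 (log2 fold change 0.08, adjusted p = 0.0955), without WT replicate 1 (0.09, adjusted p = 0.0677) and without WT replicate 3 (0.08, adjusted p = 0.0715).

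The stalk is the lateral arm of the large subunit that recruits elongation factors, and RPLP0 is its base. Rplp0 had 1584, 1594 and 1577 CPM in Alox5-/- libraries, against 1752, 1677 and 1764 CPM in WT libraries, with no overlap (edgeR log2 fold change -0.13, SE 0.03, adjusted p = 0.00282). Rplp1 and Rplp2, which bind RPLP0 as dimers, were not called. Rplp1 had 661, 925 and 695 CPM in Alox5-/- libraries, against 813, 649.5 and 794 CPM in WT libraries (edgeR log2 fold change 0.01, SE 0.10, adjusted p = 0.914). Rplp2 had 137, 218 and 145 CPM in Alox5-/- libraries, against 152, 128 and 152 CPM in WT libraries (edgeR log2 fold change 0.21, SE 0.12, adjusted p = 0.171). In both, the highest value was that of Alox5-/- replicate 2 and the lowest WT value that of WT replicate 2.

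**Figure D2:**
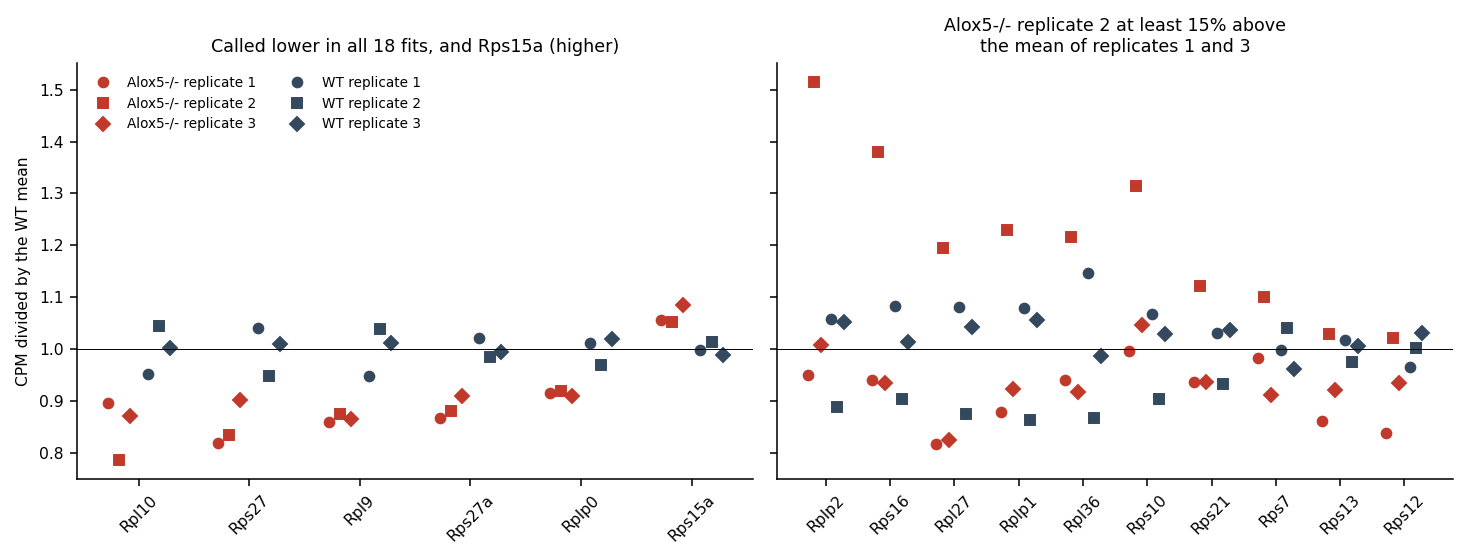
Level in each library divided by the WT mean of the gene, Alox5-/- libraries in red and WT libraries in dark blue, with a symbol for each replicate number. On the left, Rpl10, Rps27, Rpl9, Rps27a and Rplp0, called lower under all 18 fits, and Rps15a keep their groups apart; on the right, the 10 genes in which Alox5-/- replicate 2 was at least 15% above the mean of replicates 1 and 3 have that library above the other Alox5-/- libraries, by 1.55 times for Rplp2.

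Several ribosomal protein mRNAs stood high in a single library. In 10 of the 76 genes (13.2%) the value of Alox5-/- replicate 2 was at least 15% above the mean of replicates 1 and 3, a bound met by 4.7% of the 9868 genes at or above the lowest level of the 76. These were Rplp2 (1.55 times), Rps16 (1.47), Rpl27 (1.45), Rplp1 (1.36), Rpl36 (1.31), Rps10 (1.29), Rps21 (1.198), Rps7, Rps13 and Rps12, and edgeR called none of the 10. They were chosen for their values in that library, and such a choice itself widens the spread of the Alox5-/- group. These ratios are therefore a description, and the lack of calls is not a result about the 10. None of the 76 was lower in that library by the same factor.

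In 8 of these 10, WT replicate 2 was the lowest WT library, which was true of 39.4% of the 9868 genes and of 78.2% of the 464 among them that were as high in Alox5-/- replicate 2. Their transcripts had a median length of 498.5 bases, compared with 756 bases for the rest of the 76, and a median GC content of 53.0%, compared with 51.4%. Across all 76 genes the ratio for that library had a Spearman rho of -0.03 with length and 0.24 with GC content, as a description over genes of the same 6 libraries. The part of length or base composition in the ratio was not tested. Tpt1, another TOP mRNA, chosen here after its values were seen, had 140, 214 and 130 CPM in Alox5-/- libraries, against 149, 134 and 145 CPM in WT libraries. Without Alox5-/- replicate 2, 18 of the 76 genes (23.7%) were called, compared with 50.7% of all tested genes in that fit. Without WT replicate 2, 27 of the 76 (35.5%) were called, compared with 52.1%.

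Ribosomal proteins tied to disease and to the p53 checkpoint had small fold changes. Rps19 had 298.5, 273 and 298 CPM in Alox5-/- libraries, against 313, 303 and 323 CPM in WT libraries, with no overlap (edgeR log2 fold change -0.11, SE 0.04, adjusted p = 0.0255). The Rps19 call was lost without Alox5-/- replicate 2 (log2 fold change -0.06, adjusted p = 0.159), WT replicate 1 (-0.11, 0.0620) or WT replicate 3 (-0.09, 0.112), and it held under 12 of the 18 fits. Rps14 had 293, 288 and 296 CPM in Alox5-/- libraries, against 285, 277 and 282 CPM in WT libraries. Its groups did not overlap, and at the TMM scaling it was not called (edgeR log2 fold change 0.06, SE 0.03, adjusted p = 0.135). Library size alone gave Rps14 a log2 fold change of 0.10 with an adjusted p of 0.0150, and upper-quartile scaling gave 0.08 with an adjusted p of 0.0324.

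Rpl5 and Rpl11, which with 5S rRNA form the particle that binds MDM2, were not called. Rpl5 had 52.7, 51.3 and 52.8 CPM in Alox5-/- libraries, against 51.2, 55.0 and 50.4 CPM in WT libraries, and the 95% interval of its log2 fold change ran from -0.09 to 0.10. Rpl11 had 51.0, 46.5 and 48.6 CPM in Alox5-/- libraries, against 48.5, 49.8 and 52.1 CPM in WT libraries, with an interval from -0.14 to 0.06. Rpl22, an RNA-binding protein often deleted in T cell leukemia, was also not called, at 354, 342 and 344 CPM in Alox5-/- libraries and 353, 357 and 354 CPM in WT libraries (interval -0.10 to 0.03). The values of these 3 genes overlapped between the groups.

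Rpsa, the small-subunit protein also known as the laminin receptor, had 355, 377 and 349 CPM in Alox5-/- libraries, against 384, 368 and 388 CPM in WT libraries (edgeR log2 fold change -0.08, SE 0.04, adjusted p = 0.0795). It passed the threshold without Alox5-/- replicate 2 (log2 fold change -0.10, adjusted p = 0.0201) or WT replicate 2 (-0.10, 0.0263). Rps4x, which is X-linked, had 517, 515 and 521 CPM in Alox5-/- libraries, against 506, 521 and 505 CPM in WT libraries (edgeR log2 fold change 0.02, SE 0.03, adjusted p = 0.583).

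The 4 X-linked genes of the set had a median log2 fold change of -0.12: Rpl10 and Rpl36a were called lower, while Rpl39 (-0.07) and Rps4x (0.02) were not called. Xist, the RNA of the inactive X chromosome, had 181 ± 14.3 CPM in Alox5-/- libraries and 1782 ± 117 CPM in WT libraries (mean ± SD, n = 3 each). Its part in the X-linked values was not tested. The largest group on a single chromosome was that on chromosome 7, where 4 of 14 genes were called lower and 1 higher. Over all tested genes 27% were called lower and 26.8% higher.

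Levels per length of transcript spanned 266.9-fold across the 76 genes. Expressed as CPM per kilobase of the shortest transcript with a consensus coding sequence, the highest was Rpl32, at 2603 ± 19.4 in Alox5-/- libraries and 2574 ± 25.7 in WT libraries (mean ± SD, n = 3 each). Rpl4 followed at 1526 ± 20.5 in Alox5-/- and 1563 ± 11.04 in WT, then Rplp1 at 1523 ± 288 in Alox5-/- and 1507 ± 179 in WT, and Rpl8 at 1507 ± 81.0 in Alox5-/- and 1511 ± 56.5 in WT. Rpl4, Rplp1 and Rpl8 were not apart from each other beyond their spread. The lowest was Rpl24, at 9.26 ± 0.06 in Alox5-/- and 10.1 ± 1.05 in WT, followed by Rps6 at 23.2 ± 0.91 in Alox5-/- and 26.1 ± 0.87 in WT, Rpl5 at 25.6 ± 0.42 in Alox5-/- and 25.5 ± 1.21 in WT, and Rps23 at 27.3 ± 0.97 in Alox5-/- and 28.8 ± 0.79 in WT. In CPM, 41 of the 76 were at or above 100.

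In single libraries Rpl32, a protein of the large subunit, had 1352, 1334 and 1351 CPM in Alox5-/- and 1328.5, 1319 and 1345 CPM in WT. Rpl4 had 2369, 2310.4 and 2360.0 CPM in Alox5-/- and 2386, 2418.5 and 2409 CPM in WT, so that all Alox5-/- values were below all WT values, but it was not called (edgeR log2 fold change -0.04, adjusted p = 0.333). Rpl8, which lies close to the peptidyl transferase centre, had 1258, 1361 and 1229.6 CPM in Alox5-/- and 1300.5, 1232 and 1324 CPM in WT. Rpl32 and Rpl8 overlapped between the groups. Rpl24 had 6.23, 6.29 and 6.29 CPM in Alox5-/- and 7.03, 7.47 and 6.08 CPM in WT, and Rps23, a protein of the decoding site, had 24.6, 25.7 and 26.4 CPM in Alox5-/- and 26.1, 27.3 and 27.4 CPM in WT. Neither was called (edgeR adjusted p = 0.295 for Rpl24 and 0.242 for Rps23), and both overlapped between the groups.

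Many of the 76 genes share sequence with other annotated genes. Reads that align to more than one place have a summary row of their own in the table, which held 24.4 to 24.8% of all reads: 24.5 ± 0.12% in Alox5-/- libraries and 24.6 ± 0.23% in WT libraries (mean ± SD, n = 3 each; two-sided exact permutation p = 0.4, where 0.1 is the smallest that 3 against 3 allows). Of aligned reads alone they were 25.7 ± 0.07% in Alox5-/- libraries and 25.97 ± 0.10% in WT libraries, with every Alox5-/- library below every WT library (exact permutation p = 0.1). Each transcript was cut into all windows of 50 bases, and each window was looked up in the transcripts of all other annotated genes. The median gene of the 76 had 43.5% of its windows to itself. Of the 76, 17 had under 20%. Among the 4 lowest per length, Rpl24 had 18.3% and shared 436 of its 628 windows with Gm28037, and Rps6 had 15.4%, while Rpl5 (51.5%) and Rps23 (51.6%) were above the median.

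Rps27 had 4 of 296 windows to itself (1.35%), Rpl10 7.87% and Rpl9 13.3%, and all 3 were among those called lower. Rps10 (7.57%), Rps12 (9.89%) and Rps18 (13.3%) had shares like those of Rpl10 and Rpl9 and were not called. Level per kilobase had a Spearman rho of 0.40 with the share of own windows (n = 76 genes of the same libraries, a description). Sorted into 3 groups by that share, 8 of 25 genes were called in the lowest group, 8 of 25 in the middle and 4 of 26 in the highest. Among all tested genes 53.8% were called. The median log2 fold change was -0.09 in the lowest group, -0.05 in the middle and -0.04 in the highest. The sources used here do not give the read length, so 50 bases is a chosen window.

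**Figure D3:**
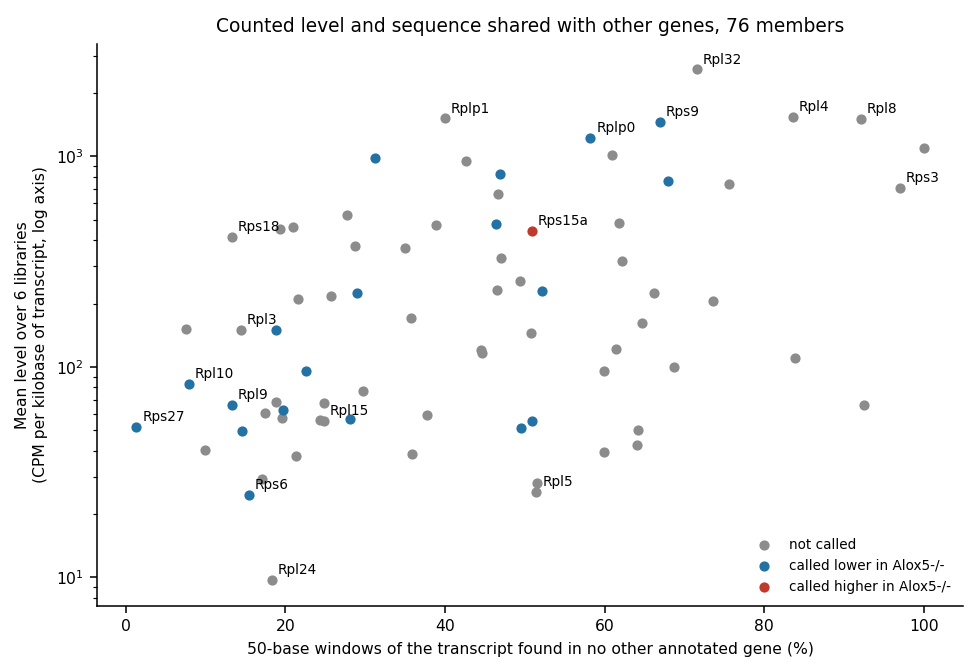
Mean level over the 6 libraries in CPM per kilobase of transcript (log axis) against the percentage of 50-base windows found in no other annotated gene, 1 point for each of the 76 genes, coloured by call. Levels run from 9.70 CPM per kilobase for Rpl24 to 2588.5 for Rpl32. At the left, below 20% of own windows, sit Rps27, Rpl10, Rpl9 and Rps6, called lower, and also Rps18 and Rpl3, not called.

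Pseudogene copies named after these genes carried counts as well. The table held 268 rows named as copies (symbols ending in -ps and a number or in -ps alone) of 57 of the 76 genes, and their counts came to 19.3% of those of the 76. In 15 cases a copy had more counts than the gene it is named after. Rps6-ps4 had 284, 274 and 302 CPM in Alox5-/- libraries, against 302, 277 and 303 CPM in WT libraries, 13.4 times the counts of Rps6. Rpl10a-ps1 had 405, 400.0 and 419 CPM in Alox5-/- libraries, against 406, 374 and 400.4 CPM in WT libraries, 5.02 times the counts of Rpl10a. The groups overlapped for both copies.

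Sequences of 3 pairs are printed to show how alike a gene and its copy are. Over a stretch without a difference the letters alone do not tell which of the pair a read came from, yet both members of each pair hold counts in the table. Reads that aligned to more than one place were not counted on either gene. The sources used here do not say how the reads that were counted were told apart. Each is a stretch of 60 bases of coding sequence read 5' to 3' on the strand of the gene, from GENCODE vM21 transcripts of the mm10 build, in lower case, with a base that differs from the copy in capitals. Rps6 lies at chr4:86854660-86857412 on the minus strand and the processed pseudogene Rps6-ps4 at chr2:75191073-75191822 on the minus strand, and all 750 coding bases compared are identical. Rps27 lies at chr3:90212522-90213651 on the minus strand and the protein-coding gene Rps27rt at chr9:114982366-114982739 on the minus strand, with 255 of 255 coding bases identical. Rpl19 lies at chr11:98026710-98030492 on the plus strand and Rpl19-ps11 at chr8:19492936-19493526 on the plus strand, with 1 difference in 585 coding bases, G185A, counted from 1 at the first coding base and written with the base of Rpl19 first.
Rps6: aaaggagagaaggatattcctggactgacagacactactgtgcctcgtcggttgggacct
Rps6-ps4: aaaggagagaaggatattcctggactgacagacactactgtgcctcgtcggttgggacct
Rps27: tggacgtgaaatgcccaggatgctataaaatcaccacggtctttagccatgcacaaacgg
Rps27rt: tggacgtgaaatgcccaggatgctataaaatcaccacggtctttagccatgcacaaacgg
Rpl19: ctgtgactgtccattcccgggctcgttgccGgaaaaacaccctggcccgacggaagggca
Rpl19-ps11: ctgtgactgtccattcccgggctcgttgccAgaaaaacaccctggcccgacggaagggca

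Of the 71 copies that passed the filter, 1 was called higher and 5 lower by the same edgeR test. This was 8.45%, compared with 53.8% of all tested genes, and the median log2 fold change of the 71 was 0.00. Those called lower were Rpsa-ps10, Rpl9-ps6, Rps19-ps6, Rps24-ps3 and Rpl18-ps2, and the one called higher was Rpl3-ps1, at 485, 472 and 481 CPM in Alox5-/- libraries, against 450.4, 448 and 449 CPM in WT libraries (edgeR log2 fold change 0.09, SE 0.03, adjusted p = 0.0125). No copy was called in the direction opposite to a called gene. Rpl3, the gene of Rpl3-ps1, was not called (edgeR log2 fold change -0.06, adjusted p = 0.115). Its Alox5-/- values all lay below its WT values, opposite to those of the copy. Of the 26 tested copies of a called gene only 3 were called, all lower like their gene, so the directions of the rest are not settled. When the counts of the copies were added to the genes they are named after, 17 of the 76 were called, 16 of them among the 20. The call was then lost for 4 genes: Rps6 (log2 fold change -0.04, adjusted p = 0.377), Rpl28 (-0.10, adjusted p = 0.0810), Rpl10a, which turned to 0.02 (adjusted p = 0.667), and Rpl36a, which turned to 0.01 (adjusted p = 0.838). Rpsa came to be called (-0.09, adjusted p = 0.0338). Genes and copies together took 2.63, 2.66 and 2.63% of gene counts in Alox5-/- libraries and 2.65, 2.57 and 2.67% in WT libraries.

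**Figure D4:**
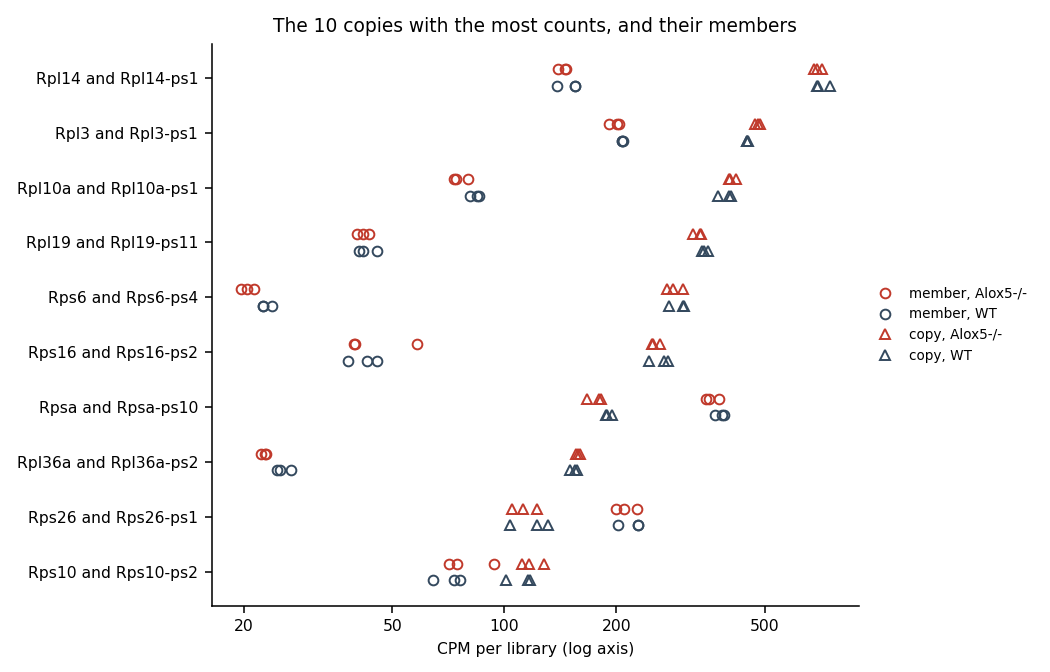
CPM in each library (log axis) of the 10 pseudogene copies with the most counts (triangles) and of the genes they are named after (circles), Alox5-/- libraries in red above WT libraries in dark blue. For 8 of the 10 pairs the copy lies to the right of its gene, and for Rpl36a, Rps6 and Rpl10a the circles of the groups are apart while the triangles overlap.

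Pyrimidine stretches were frequent at the starts of these genes. Promoter sequences of 300 bases, 250 before and 50 after the start, were matched in RefSeq (GRCm38.p6) for 56 of the 76 genes and compared with all 27025 promoters of the same length. The hexamers CCTTTC or TCTTTC on the strand of the gene, within 30 bases of the start on either side, were found in 18 of 56 (32.1%), compared with 4.72% of all promoters. Over the full 300 bases and either strand the shares were 60.7% and 39.9%. CGGAAG, the core of the binding site of ETS factors such as GABPA, was found on either strand in 39 of 56 (69.6%), compared with 17.2% of all promoters. CCTTTC and TCTTTC differ in their first base only and were counted together, and neither is contained in CGGAAG or its reverse complement. A match describes the sequence only.

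Promoters of 5 genes are printed as examples with and without these hexamers, among genes that were called or varied most. They are not in proportion to how frequent the hexamers were. Each runs from 60 bases before the start to 20 bases from it, 5' to 3' on the strand of the gene, from RefSeq, with CCTTTC or TCTTTC in capitals. Rps27 is at chr3:90213629-90213708 (minus strand), Rpl28 at chr7:4792905-4792984 (plus), Rps15a at chr7:118116128-118116207 (minus), Rplp2 at chr7:141447591-141447670 (plus) and Rpl10 at chrX:74270756-74270835 (plus), in GRCm38.p6.
Rps27: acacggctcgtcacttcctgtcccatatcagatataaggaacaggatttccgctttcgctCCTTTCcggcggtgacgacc
Rpl28: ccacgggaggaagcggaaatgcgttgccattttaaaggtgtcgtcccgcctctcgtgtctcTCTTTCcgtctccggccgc
Rps15a: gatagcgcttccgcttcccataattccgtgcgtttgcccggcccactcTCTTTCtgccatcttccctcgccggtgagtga
Rplp2: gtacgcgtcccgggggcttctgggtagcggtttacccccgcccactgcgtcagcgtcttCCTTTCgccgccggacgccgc
Rpl10: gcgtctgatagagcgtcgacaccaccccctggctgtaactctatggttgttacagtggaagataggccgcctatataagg

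Of these, Rps27 and Rpl28 were called lower, Rps15a was called higher and Rplp2 was not called, with the hexamer close to the start in all 4. Rpl10, which had the lowest fold change of the 76, shows no such hexamer in the stretch printed. Rpl9, Rps6, Rpl36a, Rpl10a, Rplp0, Rpl41, Rpl12, Rps19, Rps24 and Rps9, also called lower, show none in the same stretch of their promoters. Rpl13 and Rpl7a, called lower too, do show it. A stretch without these hexamers can still hold a run of pyrimidines: that of Rps6 holds cctctttttc.

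Ribosomal proteins whose symbols fall outside the naming rule also had small fold changes. None of the 4 tested was called by edgeR, DESeq2 or limma-voom, and none had an unadjusted p under 0.05. Among them were Rps3a1 (log2 fold change -0.05), Gnb2l1, which encodes the scaffold protein RACK1 (0.02), and Fau (0.06). Gnb2l1 had 1760, 1785 and 1778 CPM in Alox5-/- libraries, against 1778, 1673 and 1792 CPM in WT libraries.

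Paralogues, genes that encode a second version of a ribosomal protein, included larger changes. Of 9 listed, 6 passed the filter, of which 4 were called lower and 1 higher (53.8% of all tested genes were called), while Rpl39l, Rpl10l and Rps4l were at 0 counts in all libraries. Rps27l, a p53-induced paralogue of Rps27, had 54.0, 57.8 and 54.3 CPM in Alox5-/- libraries, against 73.2, 73.2 and 74.7 CPM in WT libraries (edgeR log2 fold change -0.41, SE 0.04, adjusted p = 4.81e-07). Rpl36al had 116, 108 and 111 CPM in Alox5-/- libraries, against 139, 139.8 and 140.4 CPM in WT libraries (edgeR log2 fold change -0.33, SE 0.03, adjusted p = 1.53e-06). For both, all Alox5-/- values were below all WT values.

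Rpl7l1 fell by 0.26 on the log2 scale (edgeR adjusted p = 1.01e-05) and Rps27rt by 0.19 (adjusted p = 0.000387). Rps27rt, whose coding sequence is that of Rps27, had 31856 counts over the 6 libraries, 9.40 times the 3389 of Rps27, so the calls of this pair are not separate measurements. With the counts of both added, in a fit chosen after the data were seen, the pair had 175, 166 and 182 CPM in Alox5-/- libraries, against 197, 203 and 199.6 CPM in WT libraries (edgeR log2 fold change -0.20, SE 0.04, adjusted p = 0.000268). Rpl22l1, a paralogue of Rpl22, was higher, with 56.4, 52.2 and 60.2 CPM in Alox5-/- libraries, against 46.8, 46.1 and 45.6 CPM in WT libraries (edgeR log2 fold change 0.29, SE 0.05, adjusted p = 0.000172), while Rpl22 itself was not called. Rpl3l, with 0.91 ± 0.09 CPM in Alox5-/- libraries and 0.78 ± 0.09 CPM in WT libraries (mean ± SD, n = 3 each), was not called.

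Other mRNAs of the TOP class went both ways. Of 20 listed, 4 were called higher and 9 lower (65%, near the 53.8% of all tested genes), with a median log2 fold change of 0.00. Those with the smallest p were Eif2s3x, an X-linked initiation factor subunit (-0.87, edgeR adjusted p = 4.68e-09), Vim, which encodes vimentin (-0.41, adjusted p = 2.44e-07), Eef1d, an elongation factor subunit (-0.33, adjusted p = 4.49e-07), and Ipo5, an importin that carries ribosomal proteins into the nucleus (-0.25, adjusted p = 5.35e-06). Of the 15 genes listed as regulators of ribosomal protein synthesis, 4 were called higher and 4 lower (53.3%, about the share of all tested genes). Eif4ebp1, the translation repressor that mTORC1 phosphorylates, had 179, 200.4 and 184 CPM in Alox5-/- libraries, against 128, 114 and 121.5 CPM in WT libraries (edgeR log2 fold change 0.63, SE 0.05, adjusted p = 3.67e-08). Rheb, the activator of mTORC1 (0.36), Mlst8, a subunit of it (0.34), and Myc (0.27) were also higher, and Larp1, Tsc1, Rptor and Tsc2 were lower, by 0.12 to 0.21 on the log2 scale.

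Of 15 chaperones and importers of ribosomal proteins listed, 10 were called lower and 2 higher, compared with 27% lower and 26.8% higher over all tested genes, and their median log2 fold change was -0.20. Grwd1, a chaperone of Rpl3, had 37.4, 40.04 and 38.4 CPM in Alox5-/- libraries, against 61.0, 57.6 and 63.9 CPM in WT libraries (edgeR log2 fold change -0.66, SE 0.05, adjusted p = 2.74e-08). Heatr3, which helps import the proteins that bind 5S rRNA, was lower by a log2 fold change of -0.35 (adjusted p = 7.81e-07), and Kpnb1, importin beta, by -0.32 (adjusted p = 3.85e-07).

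Of the 6 genes listed for the checkpoint that senses failed ribosome assembly, 4 were called lower and 1, Mdm4, higher, where 53.8% of all tested genes were called and 27% were lower. Cdkn1a, the p53 target that encodes p21, had 84.9, 95.8 and 85.6 CPM in Alox5-/- libraries, against 144, 149 and 157 CPM in WT libraries (edgeR log2 fold change -0.76, SE 0.05, adjusted p = 5.33e-09). Ccng1 (-0.74), Bax (-0.39) and Trp53 itself (-0.31) were lower too, and Mdm2 was not called (-0.04, adjusted p = 0.378).

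**Figure D5:**
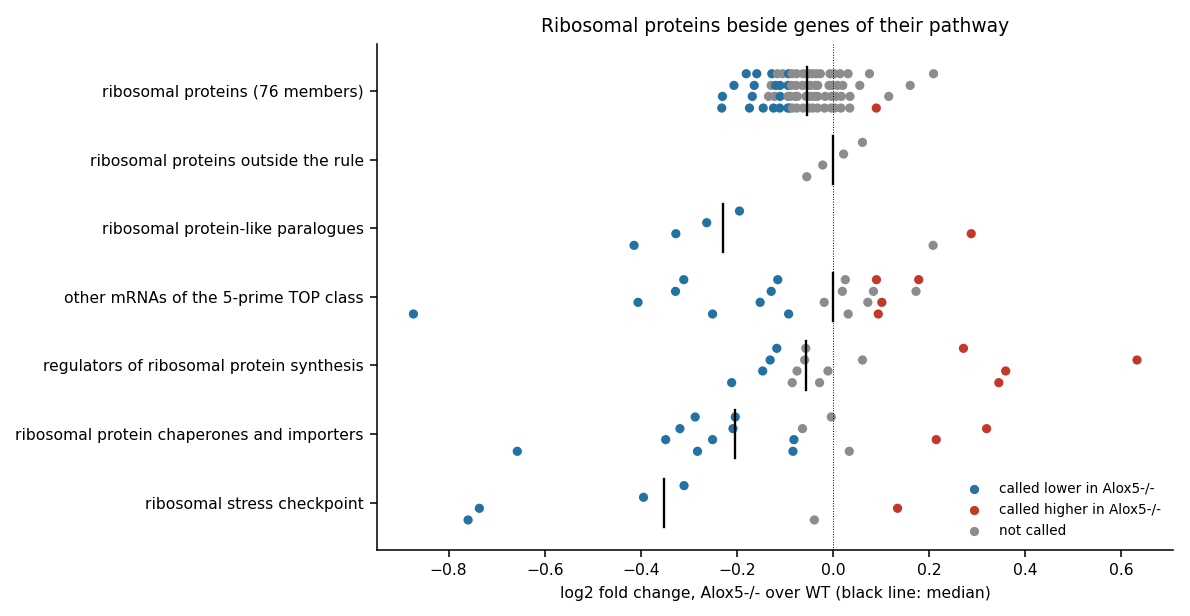
Log2 fold change, Alox5-/- over WT, of the 76 ribosomal protein genes and of the tested members of 6 lists of related genes, coloured by call, with a black line at the median of each list. The 76 lie between -0.23 and 0.21, while the checkpoint list reaches -0.76 (Cdkn1a) and the list of regulators 0.63 (Eif4ebp1).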

How the data were processed

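Poly-A RNA was sequenced in 6 libraries, 3 from Alox5-/- and 3 from WT cells, after sorting and SMARTer cDNA amplification, per the labels. The authors deposited raw read counts per gene. The submitters' processing notes name HTSeq, DESeq2 and the mouse build mm10; the aligner, versions, annotation release, read length and strand were not given in the sources used here. In the deposited counts, 5 summary rows that name no gene entered neither library sizes nor tests. As shares of all reads they were multiply aligned reads (24.4 to 24.8%), reads outside genes (9.10 to 10.2%), ambiguous reads (0.523 to 0.547%), not aligned (4.57 to 5.78%) and of low quality (0%).

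Counts were tested in R 4.3.3 with edgeR 4.0.16 (TMM, default expression filter with a minimum count of 10, quasi-likelihood F-test, no covariate), with Benjamini-Hochberg adjustment over all 13705 tested genes. Standard errors come from the coefficient and its F statistic. A count of 0 allows up to 3 counts, or 0.0786 to 0.103 CPM. Floors and intervals on counts cover counting error only, since amplified reads are not independent molecules.

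Alternatives were the DESeq2 1.42.0 Wald test, voom of limma 3.58.1, size factors of DESeq2, upper-quartile scaling, library size only, scaling without the 76 genes, no filter, a filter of 5 CPM in 3 libraries, a robust fit, copies added to their gene, a replicate block and each library left out. Transcripts and positions are from GENCODE vM21, in which all 76 genes were found, and promoters from RefSeq. The shortest protein-coding transcript with a consensus coding sequence gave length and windows. Strand being unstated, overlapping genes are uncertain, Rps10 with its readthrough gene among them.

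The 76 genes and the 6 lists of related genes were chosen with earlier results of these data known. Named with values were the 8 called genes with the largest rise and fall, the 4 highest and 4 lowest per length, 9 genes tied to disease, checkpoint or signalling, genes outside the naming rule, all paralogues, up to 4 called genes by smallest p of the other lists, and Alox5. Genes named beyond these were chosen after their values were seen, and a few genes that the rule names are not reported here.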

Additional observations from a re-analysis of the deposited data

Results flagged for a closer look

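Reads that fell outside annotated genes, which enter no comparison above, made up 9.76 ± 0.39% of all reads in Alox5-/- libraries and 9.24 ± 0.13% in WT libraries (SD, n = 3 each). They stand out because every Alox5-/- library was above every WT library. The two-sided exact permutation p was 0.1, the smallest that 3 against 3 allows.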

How the results depend on the processing

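Of the counts of called ribosomal protein genes (20, with 1 higher and 19 lower in Alox5-/-), those of DESeq2 (15 called), limma-voom (20), size factors of DESeq2 (20), scaling without the 76 genes (20), the robust fit (19), copies added (17) and the replicate block (20, of which 19 were among the 20) were within 1.5 times. Upper-quartile scaling gave 13 (3 higher, 10 lower) and library size only 12 (4 higher, 8 lower), with a median log2 fold change of -0.0122 under the second. No filter gave 4 higher and the stricter filter 2 higher. Called and at least 1.2-fold left 0, compared with 4210 of all 13705 tested genes. Leaving out each library gave 11 to 27 called, 0 to 3 higher, 11 to 26 lower and medians of -0.07 to -0.04, with fewer samples in each fit. In those fits 47.3 to 52.1% of all tested genes were called. With copies added, Rpl36a turned to 0.00822 and Rpl10a to 0.02. Among genes named by the rule 807 of the values under alternatives kept direction and side of the threshold, 20 no longer passed it, 5 came to pass it and 1 turned; the causes were not tested. Same-numbered libraries did not deviate together (correlations -0.04, -0.13 and -0.01), so the replicate numbers are not treated as pairs. Depth limits Rpl24 most, at 6.57 CPM.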
